A study of Rattus norvegicus with 35 samples.

Results

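The genes described here encode the proteins of the mitochondrial ribosome. They were taken as every record of the count table whose RefSeq identifier maps to a rat symbol that starts with Mrpl or Mrps followed by a digit. The rule gave 67 genes, called members here, of 17201 records, 16209 of which matched a symbol. By current mitoribosome nomenclature 44 members belong to the large subunit and 23 to the small subunit. Mrps30 and Mrps18a carry small-subunit symbols but encode large-subunit proteins, and were counted there.

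The libraries came from rat converted hypoblast stem cells, which the labels describe as derived from embryonic stem cells of the rat by culture in 2% serum with the factors EGF, LIF and PDGF. All were collected at day 12 of differentiation, with no other treatment group. Single-cell libraries were made on the Fluidigm C1, a microfluidic chip that isolates and lyses 1 cell per chamber, followed by Nextera XT. There were 34 single cells and 1 bulk population control, and the labels name no culture or passage, so the cells form 1 sample and the bulk library another. With 1 sample on each side no difference between cells and bulk could be tested, and the SDs below describe cells, not cultures.

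Mitochondria carry their own small genome and a separate ribosome that translates its messages, which encode core subunits of the respiratory chain. All proteins of that ribosome are encoded in the nucleus, made in the cytoplasm and imported. Some descend from bacterial ribosomal proteins and others are found only in mitochondria. By their protein names in the nomenclature used above, 38 members count as the first kind and 29 as the second. The second kind so counted includes Mrps18a and Mrps18b, although both arose from a bacterial gene.

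Libraries differed widely in depth and in the number of genes found. Reads in genes ranged from 6288 to 503044 over the cells, and the bulk library held 47121. Of the 34 cells, 22 had at least 50000 reads and at least 3000 genes with a read and are called gene-rich below. The other 12 had 349 to 2777 genes and are called gene-poor, although C95 and C74, with 450250 and 431709 reads, were among the deepest. Levels are given in CPM, in which every library is scaled to the same sum. A single read was worth 1.99 to 159 CPM in a cell and 21.2 CPM in the bulk library. Even counts made up 69.2% of the nonzero counts of members in cells, and 40 of the 44 nonzero counts in bulk, an excess that independent reads would not give. Intervals below cover counting error of independent reads only and are too narrow to that extent. Of 11 measured hypoblast markers 10 were detected in at least 17 cells; 0 of 4 pluripotency and 0 of 8 fibroblast markers were.

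How many members a cell showed followed how many genes it showed at all. Gene-rich cells had a read for 35 (C17) to 66 (C72) of the 67 members, with a median of 56.5. Gene-poor cells had a read for 1 (C88) to 24 (C95), with a median of 12.5, and the ranges do not overlap. Over all 34 cells the number of members with a read and the number of genes with a read had a Spearman's rho of 0.857, both being counted in the same library. Within the gene-rich cells the rho was 0.578. When each cell was thinned to 20000 reads, which left out the 2 shallowest cells, gene-rich cells kept 25 to 48 members and 10 gene-poor cells 8 to 19. The classes were split on the number of genes with a read, so a gap in members is in part built in, and thinning matched reads and not molecules. Members per 100 genes with a read were 0.933 to 1.66 in gene-rich and 0.225 to 1.46 in gene-poor cells. The bulk library, at lower depth than any gene-rich cell, had a read for 44 members.

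**Figure D1:**
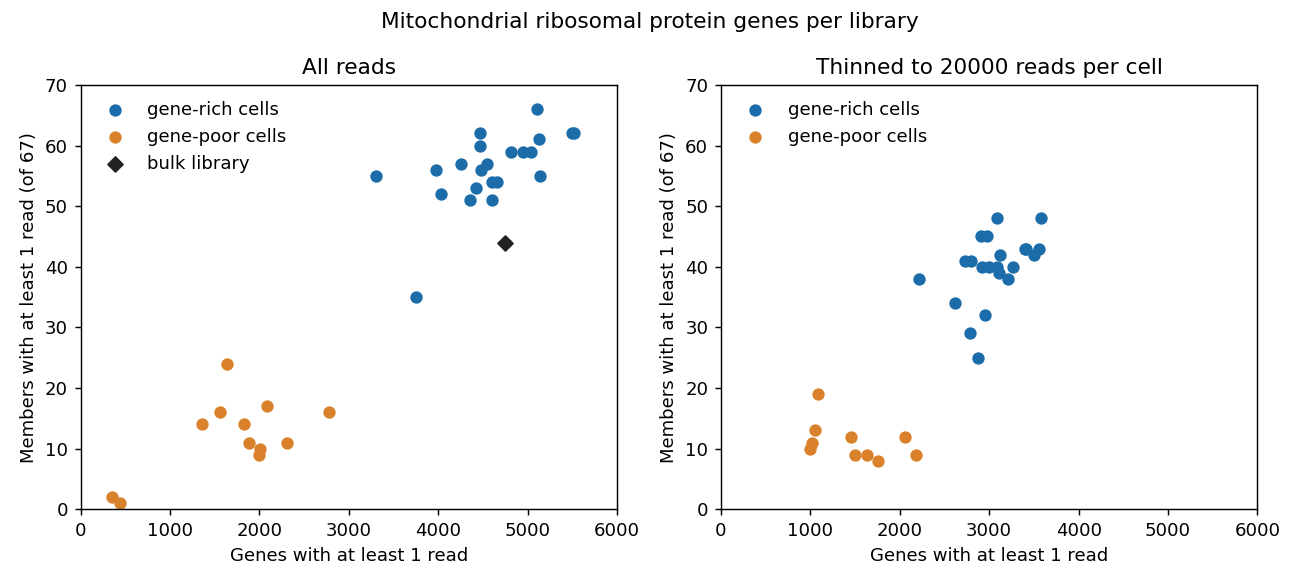
Members with at least 1 read (vertical axis, of 67) against genes with at least 1 read (horizontal axis), one point per library, with all reads (left) and with each cell thinned to 20000 reads (right, without the 2 shallowest cells and the bulk library). Gene-rich cells lie between 35 and 66 members and gene-poor cells between 1 and 24 on the left; the classes stay apart on the right, at 25 to 48 and 8 to 19.

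Most members were detected in at least 17 of the 34 cells. The threshold for detection was 5 CPM. Each member was detected in 11 to 28 of the 34 cells, with a median of 20, and 59 of the 67 in at least 17 cells, 6 of these in exactly 17. Among all records with a read in a cell, 27.3% reached 17 cells. The members' share was also the higher one above a fixed level: of records with a mean of at least 20 CPM over cells, 59 of 65 members and 54.1% of all records reached 17 cells. In the gene-rich cells all 67 members were detected in at least 11 of 22, against 38.6% of all records. Above a gene-rich mean of 20 CPM the counts were 66 of 66 members and 72% of records. Of the members, 7 were detected in all 22 gene-rich cells (Mrpl17, Mrps18b, Mrps18a, Mrpl51, Mrpl30, Mrpl20 and Mrpl27). The share of all records detected in all 22 was not computed. The count of 59 depends on depth and threshold. At 50 CPM it was 16 of 67 members, against 13.2% of all records. After thinning 28 members reached 16 of 32 cells, against 16.8%.

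Both subunits and both evolutionary classes were widely detected. At least 17 cells were reached by 40 of 44 large-subunit and 19 of 23 small-subunit members, with medians of 21 and 20 cells. Members with a bacterial homologue had a median of 20.5 cells and mitochondria-specific members a median of 20. The members that did not reach 17 cells were Mrpl3, Mrpl4, Mrpl21 and Mrpl34 of the large subunit and Mrps2, Mrps24, Mrps27 and Mrps31 of the small subunit, at 11 to 16 cells. Of these, Mrpl3, Mrpl4, Mrpl21, Mrps27 and Mrps31 were named after their values were seen, as was Mrpl27 above. Reads of this protocol grow with transcript length and no transcript lengths were used here, so detection and CPM are compared between libraries for a gene and not ranked as expression between genes.

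**Figure D2:**
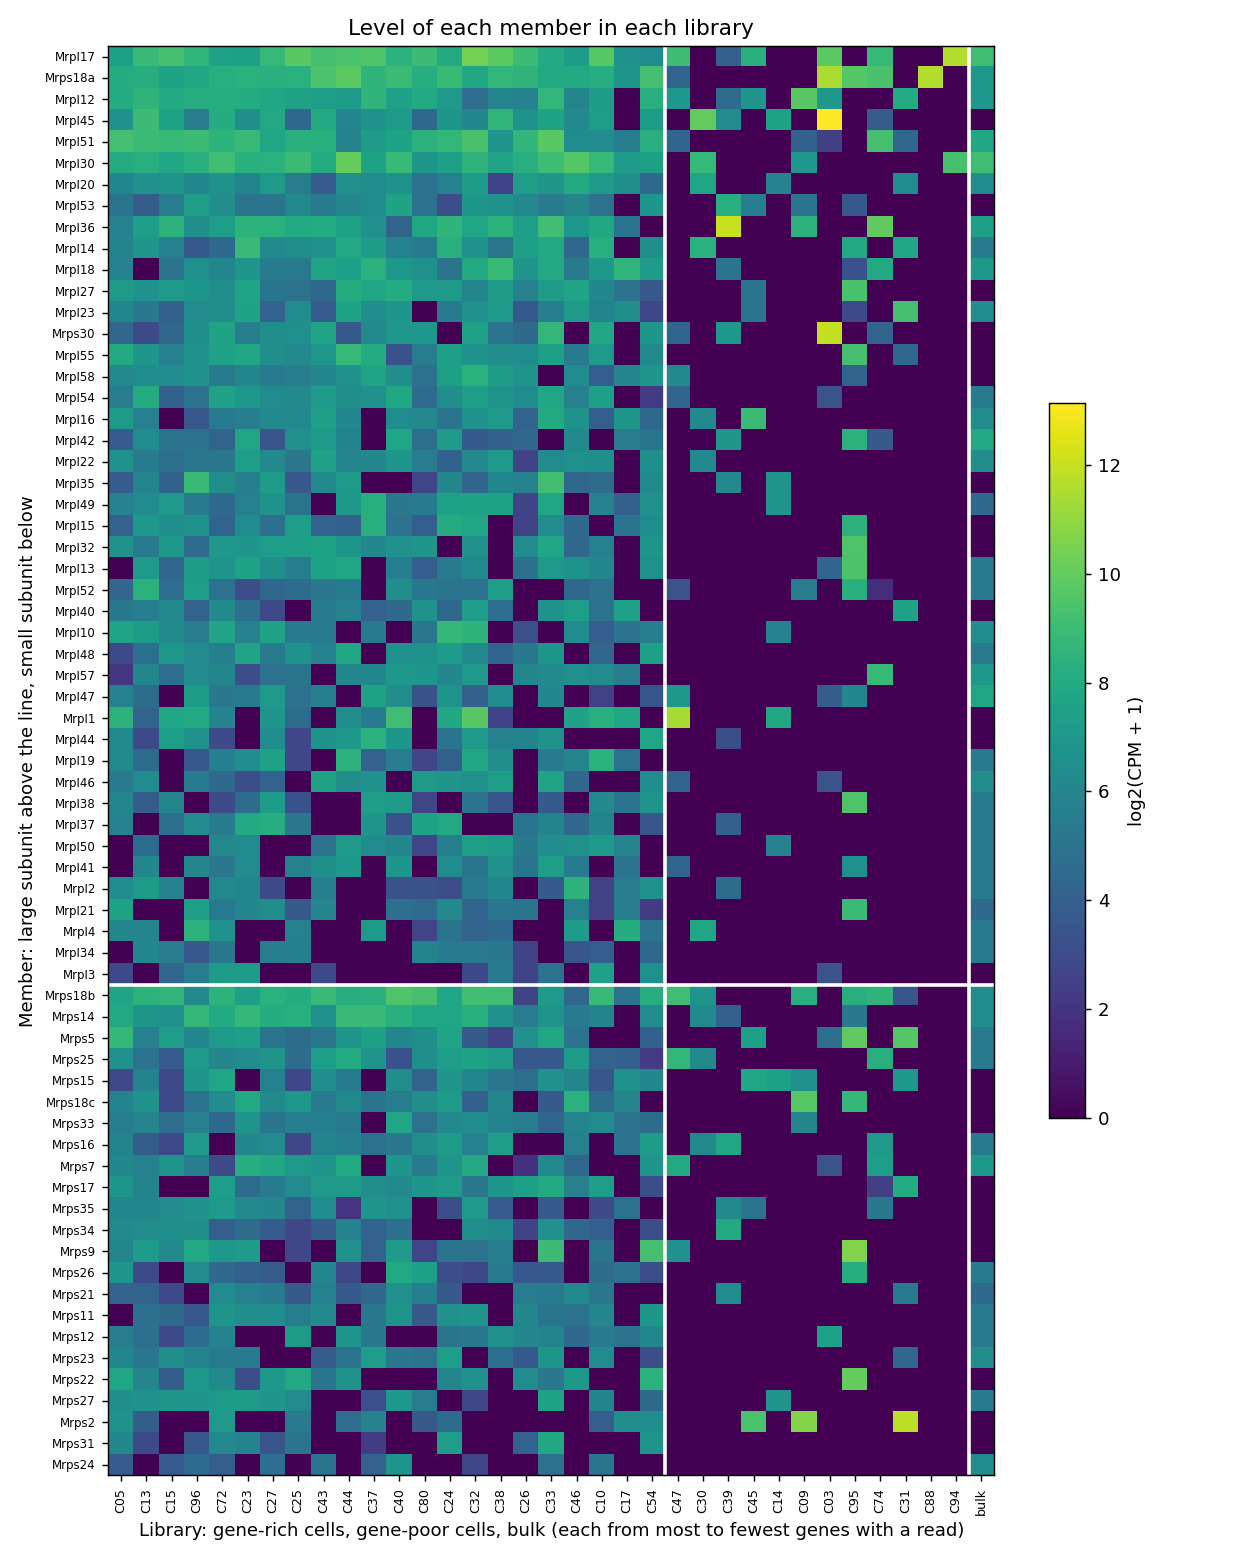
Level of each of the 67 members (rows, log2 of CPM + 1, colour scale at the right) in each of the 34 cells and the bulk library (columns). White lines separate the 44 large-subunit members from the 23 small-subunit members, and the 22 gene-rich cells from the 12 gene-poor cells and from bulk; the dark right-hand block holds the 1 to 24 members seen per gene-poor cell.

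Mrpl17 and Mrps18b were the members with the most detections, at 28 of 34 cells each. Mrpl17 encodes bL17, a bacterial-type protein of the large subunit. Its share of cells was 82.4% (exact Clopper-Pearson interval 65.5% to 93.2%, at a level of 95%). In the 22 gene-rich cells it ran from 81.5 through a median of 464 to 1319 CPM (483 ± 318 CPM, mean ± SD). Bulk held 26 reads, or 552 CPM, inside that range. Mrpl12 encodes bL12, the flexible stalk protein that receives translation factors and that has also been described as a partner of the mitochondrial RNA polymerase. It was detected in 27 cells, at 205 ± 118 CPM in the gene-rich cells, from 0 in C17 to 416 CPM in C33. Mrpl51 and Mrpl30, of the large subunit, were at 340 ± 215 and 366 ± 220 CPM, and neither fell below 46.1 CPM in a gene-rich cell. Mrps14, for the small-subunit head protein uS14, was detected in 24 cells at 214 ± 148 CPM among the gene-rich. Mrps5, for uS5, was also detected in 24 cells, but at a lower gene-rich mean of 97.9 ± 102 CPM and with 2 gene-rich cells at 0 reads. Mrps12 encodes uS12 of the decoding centre and was detected in 18 cells, at 40.6 ± 37.8 CPM in the gene-rich cells. Also among the 12 most widely detected were Mrpl20 and Mrpl53 (25 cells each) and Mrpl36 (24 cells).

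The paralogues Mrps18a, Mrps18b and Mrps18c, which arose from a single bacterial S18 gene, were all expressed. Their products sit at different places: Mrps18c encodes the true S18 protein of the small subunit (bS18), Mrps18b a second small-subunit protein (mS40), and Mrps18a a large-subunit protein (mL66). Mrps18a ran from 123.005 through 314 to 914 CPM over the 22 gene-rich cells and Mrps18b from 5.53 through 308 to 740 CPM. Mrps18c ran from 0 through 60.0 to 336 CPM. Mrps18a and Mrps18b were thus found in every gene-rich cell, and Mrps18c in 20 of them. Over all 34 cells the numbers were 27, 28 and 22.

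Several members share short promoter sequences. RefSeq promoters of the GRCr8 rat assembly, from 250 bases before to 50 after the annotated start, could be matched for 55 of the 67 members. Each was searched on both strands for a core ETS-factor motif (CCGGAAG), for a palindromic motif of nuclear respiratory factor NRF1, whose letters are the capitals in the Mrpl17 sequence below, and for a motif of YY1 (AAGATGGCG). The ETS motif was present in 18 of 55 members (32.7%), against 11.2% of 18999 protein-coding promoters. The NRF1 motif was present in 4 (7.27%, against 1.14%) and the YY1 motif in 8 (14.5%, against 2.27%). At least 1 of the 3 was found in 26 members (47.3%, against 13.8%). The last 3 letters of the ETS motif equal the first 3 of the YY1 motif, but in the 3 members that hold both (Mrpl36, Mrps18a and Mrps27) the matches lie apart. A match describes the sequence and not a bound site. A protein-coding gene with a divergent start within 1000 bases was found for 17 of the 55 members (30.9%), against 6.89% of all. These neighbours included Tcp1 (beside Mrpl18), Psma2 (Mrpl32), Ndufb5 (Mrpl47) and Fau (Mrpl49), each detected in 21 or 22 gene-rich cells. Others were detected in fewer: Mitd1 (Mrpl30) in 13, Eme1 (Mrpl27) in 8 and Hira (Mrpl40) in 7. Klc4 (Mrpl2), Ppp1r10 (Mrps18b), Helq (Mrps18c) and Ptcd2 (Mrps27) were detected in 5 each, and Pnpla7 (Mrpl41) in 1. Cyb5rl (Mrpl37), Ncapd2 (Mrpl51) and Gga3 (Mrps7) had no matched record. The members Mrpl46 and Mrps11 face each other.

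The 100 bases before the start are shown for the 5 of the 12 most widely detected members that hold a motif wholly within them. Ties at 24 cells were broken by mean CPM, which left out 6 members, of which Mrpl27 and Mrpl23 also hold an ETS motif there. Sequences run 5′ to 3′ on the gene's strand, and capitals mark the motif.
Mrpl17, GRCr8 chr1:169575700-169575799, minus strand, NRF1 motif: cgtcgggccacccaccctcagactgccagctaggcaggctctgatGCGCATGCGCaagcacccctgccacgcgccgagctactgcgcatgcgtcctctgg
Mrps18b, GRCr8 chr20:2842906-2843005, plus strand, NRF1 motif: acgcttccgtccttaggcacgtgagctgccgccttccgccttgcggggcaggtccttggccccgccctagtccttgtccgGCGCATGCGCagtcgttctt
Mrps18a, GRCr8 chr9:22367381-22367480, minus strand, ETS motif: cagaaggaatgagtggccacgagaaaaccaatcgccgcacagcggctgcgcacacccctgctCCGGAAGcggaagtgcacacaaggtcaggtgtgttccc
Mrpl53, GRCr8 chr4:117172943-117173042, plus strand, ETS motif on each strand: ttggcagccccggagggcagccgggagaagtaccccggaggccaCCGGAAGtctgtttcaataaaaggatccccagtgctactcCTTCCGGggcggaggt
Mrpl36, GRCr8 chr1:31795122-31795221, minus strand, ETS motif and, on the opposite strand, YY1 motif: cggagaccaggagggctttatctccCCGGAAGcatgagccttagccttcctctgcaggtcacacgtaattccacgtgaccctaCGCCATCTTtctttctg
The NRF1 motif lies 55 to 46 bases before the start of Mrpl17 and 20 to 11 bases before that of Mrps18b. In Mrps18a the ETS motif lies 38 to 32 bases before the start.

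Some members owed their mean to a single gene-poor cell. Mrpl45 encodes mL45, a protein at the exit of the nascent chain that anchors the ribosome to the inner membrane. Its mean over 34 cells was 399 ± 1525 CPM, with a median of 94.9 CPM and a highest value of 8963 CPM in C03. That cell held 66.1% of the signal, and the mean was 139 CPM without it. In the gene-rich cells Mrpl45 was at 151 ± 126 CPM and was detected in 21 of 22. Mrps30 (mL65) drew 63.0% of its signal from the same cell, where it stood at 3874 CPM against 95.9 ± 102 CPM in the gene-rich cells. Mrps2, for uS2 of the small subunit, drew 55.1% from C31, where it reached 3605 CPM, and its gene-rich mean was 27.02 ± 40.2 CPM. These 3 members are 4.62% of the 65 with a mean of at least 20 CPM, against 14% of all such records in which 1 cell held most of the signal. For Mrpl1 (uL1, the mobile stalk at the exit site for transfer RNA) the leading cell was C47 with 41.9% of the signal, for Mrpl36 it was C39 with 41.0%, and for Mrpl38, Mrps9 and Mrps22 it was C95 with 44.8%, 39.8% and 37.2%. In the gene-rich cells alone 0 of 66 members with a mean of at least 20 CPM had a cell above 50%, against 7.36% of such records. Of the 67 members, 32 had their highest CPM in a gene-poor cell, 12 of them in C95. The same shares over all records were not computed, so these counts are not read as a trait of the members.

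Within gene-rich cells, most members had a cell without a read, a share near that of all records at such counts. For 63 members the mean was at least 10 reads per gene-rich cell, and 55 of these had 0 reads in at least 1 gene-rich cell. Of all 4343 records with such a mean, 84.6% did. Mrpl1, with a mean of 43.05 reads, had none in 6 of the 22 cells. Mrps9, for uS9, had a mean of 36.6 reads and none in 5 cells. The coefficient of variation over gene-rich cells ranged from 0.488 to 1.71 over members, with a median of 0.941.

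The members took 0.281% (C17) to 0.979% (C32) of a gene-rich cell's reads, with a mean of 0.676% ± 0.165 (SD, n = 22 cells), a coefficient of variation of 24.5%. Gene-poor cells spread wider, from 0.109% (C14) to 1.70% (C03). In C03 the large subunit alone took 1.67%, of which Mrpl45 and Mrps30 were the main part. The order of gene-rich cells was C32, C33 (0.966%) and C44 (0.907%) at the top and C80 (0.527%), C26 (0.406%) and C17 at the bottom. The sum had a rho of 0.178 with the number of genes and of −0.15 with reads over the 22 cells.

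**Figure D3:**
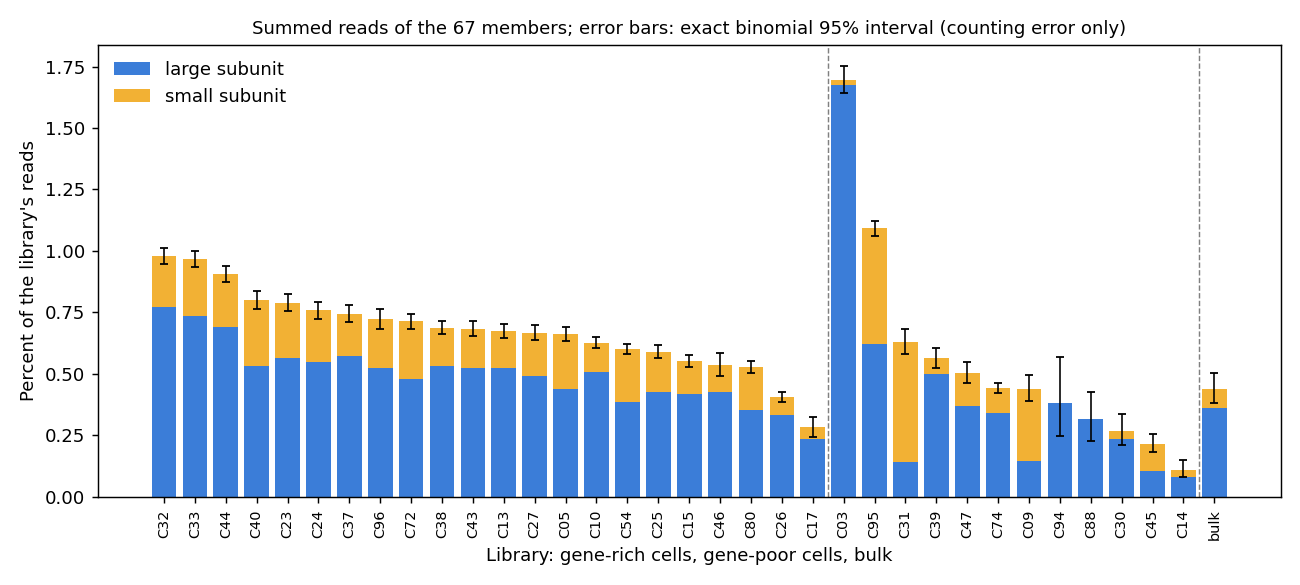
Percent of each library's reads in members of the large (blue) and small (yellow) subunit, for gene-rich cells, gene-poor cells and the bulk library, separated by dashed lines; error bars are exact binomial 95% intervals of the sum and cover counting error only. Gene-rich cells run from 0.281% to 0.979%, gene-poor cells from 0.109% to 1.70%, and bulk is at 0.437%.

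The lowest sums included cells with a fibroblast transcript. Col1a2, a fibrillar collagen gene, had reads in 4 cells, and the members took 0.109% of the reads in C14, 0.268% in C30, 0.281% in C17 and 0.536% in C46. C14, C30 and C17 ranked 1, 3 and 4 from the bottom of the 34 cells. Over all cells the fibroblast list as a whole (8 genes, 0 to 0.342% of reads, with a median of 0) had a rho of −0.42 with the members' sum, and −0.20 over the gene-rich cells. The list was not the closest correlate of the members' sum. Rn45s, the ribosomal RNA precursor, had a rho of −0.52 with that sum over all cells and −0.42 over the gene-rich cells. The number of reads had a rho of 0.44 with it over all cells. C13, the gene-rich cell with the most reads of that list (0.0776%), and C96 (0.0296%) had sums of 0.674% and 0.721%, near the gene-rich mean. The 4 cells were also shallow, with 27284 to 95359 reads. Hypoblast markers took 0.0738% of reads in C17, 0.0724% in C46, 0.0806% in C30 and 0.471% in C14. Their median over the gene-rich cells, which include C17 and C46, was 1.42%. Over the gene-rich cells the hypoblast markers had a rho of 0.05 with the members' sum. The part of fibroblast transcripts, depth, Rn45s or low hypoblast markers in the low sums was not tested. Without the 4 cells with Col1a2 the median share of reads over cells was 0.665%, against 0.628% with all cells.

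The sums of the 2 subunits had a positive rank correlation over the gene-rich cells. The large subunit took 0.499% ± 0.126 and the small subunit 0.176% ± 0.055 of reads (SD, n = 22 cells), and their sums had a rho of 0.488 over those cells. C17, the gene-rich cell with the fewest reads, was lowest for both, at 0.235% and 0.0461%. Whether the 2 subunits are closer to each other than the sums of other gene lists are was not tested. Over all 34 cells the rho was 0.354 and Pearson's r was −0.03. At the level of single genes little covariation was seen: over the gene-rich cells the median rho of 2211 member pairs was 0.06, with 61.0% of pairs above 0, against 0.02 and 53.0% for pairs of the 4125 records detected in at least 11 of those cells. Over all 34 cells the median for the 1711 pairs of the 59 members detected in at least 17 cells was 0.357. For pairs of the 2924 records detected in at least 17 cells it was 0.207. Both medians include the contrast between gene-rich and gene-poor cells. The members most like the sum of the others over 34 cells were Mrpl55 (rho 0.712, 0.605 in gene-rich cells), Mrpl47 (0.647 and 0.529) and Mrpl13 (0.638 and 0.424). In the gene-rich cells alone the order differed, with Mrps14 (0.651) and Mrpl54 (0.613) above Mrpl55. Mrpl54 was named after its values were seen. These correlations are descriptions of cells from 1 preparation and carry no test.

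For the lists of genes that work with the mitoribosome or control its making, the median gene was detected in 5 to 12 gene-rich cells, against 19 for the members. Of the 5 mitoribosomal proteins whose symbols fall outside the rule (Dap3, Aurkaip1, Chchd1, Ptcd3 and Gadd45gip1), all were detected in at least 11 of the 22 gene-rich cells, with a median of 19, the same as the median of the members. Ptcd3 (mS39, at the messenger RNA entry) was at 217 ± 260 CPM and Chchd1 (mS37) at 83.2 ± 56.4 CPM in those cells. Of 11 translation factors 4 reached 11 cells, led by the elongation factors Tufm (18 cells, 176 ± 172 CPM) and Gfm1 (19 cells, 110 ± 78.3 CPM). Initiation factor Mtif2 was detected in 8 gene-rich cells. Of 14 mitochondrial aminoacyl-tRNA synthetases, which charge transfer RNAs, 3 reached 11 cells, and the median was 5. Fars2 was detected in 10 cells and Sars2 in 9. Assembly factors reached 11 cells in 8 of 18 genes, with C1qbp in all 22 cells (152 ± 96.9 CPM) and Fastkd2 in 15. Of the genes for mitochondrial DNA replication and transcription, 8 of 11 reached 11 cells, among them Tfam, the packaging factor of mitochondrial DNA (19 cells, 138 ± 136 CPM), Lrpprc (16 cells) and Polg (15 cells). Regulators of mitochondrial biogenesis did so in 2 of 9 genes, Pprc1 (17 cells) and Gabpa (14 cells), while Yy1 was detected in 10 and Myc in 6. Gabpa was named after its values were seen. The background for these counts is the 38.6% of all records. Transcript length and abundance differ between the lists and their part in these counts was not tested.

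Cytoplasmic ribosomal proteins and oxidative phosphorylation subunits had medians of 22 and 21 gene-rich cells. All 75 cytoplasmic ribosomal protein genes and 70 of 76 oxidative phosphorylation subunits reached 11 gene-rich cells. They took 5.07% ± 0.781 and 1.62% ± 0.276 of the reads in those cells, against 0.676% for the members. The members' sum had a rho of 0.687 with that of oxidative phosphorylation subunits and of 0.461 with that of cytoplasmic ribosomal proteins over 22 cells. All are shares of the same library.

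**Figure D4:**
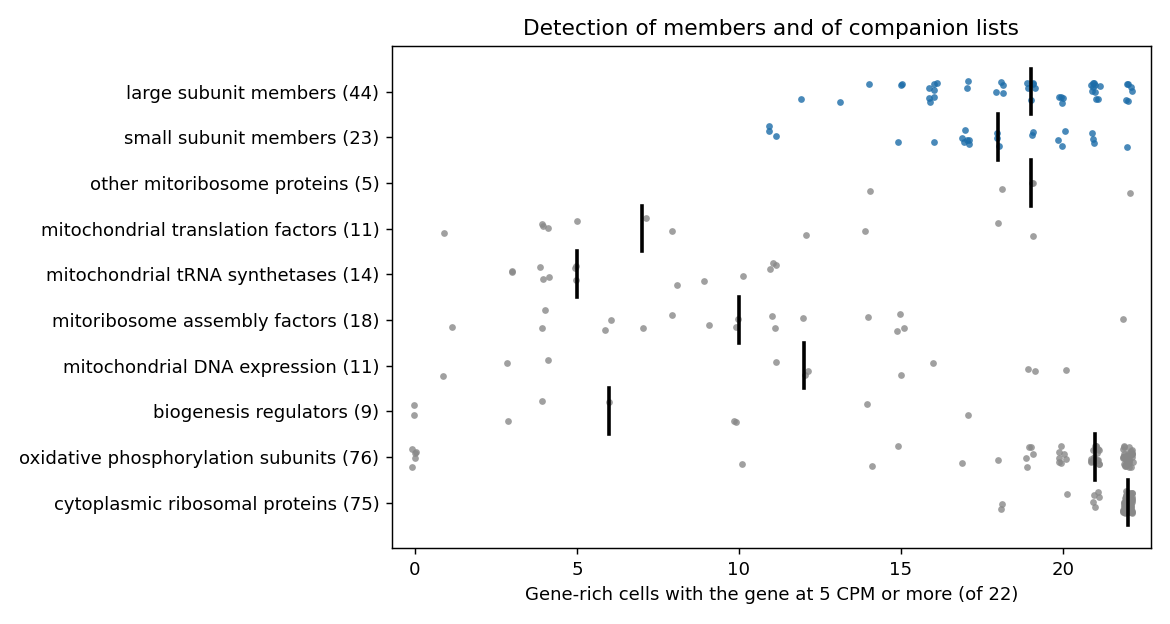
Number of gene-rich cells (horizontal axis, of 22) in which each gene was detected at 5 CPM or more, one point per gene with a small random offset, for members (blue) and companion lists (grey, number of genes in brackets); black bars are medians. All 67 members lie at 11 cells or more, and the medians of translation factors and synthetases are 7 and 5.

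In the bulk library the members took 206 reads, or 0.437% (exact 95% interval 0.380% to 0.501%). The mean of the 34 cells was 1.45-fold higher (1.26 to 1.67, from the bulk reads alone) and that of the gene-rich cells 1.55-fold higher (1.35 to 1.78). With every 2 bulk reads taken as 1, a choice made after the even counts were seen, the intervals were 1.19 to 1.77 and 1.27 to 1.89. Of the 22 gene-rich cells, 20 lay above the bulk value and C26 and C17 below it. The same ratio of gene-rich cells to bulk was 1.63 for cytoplasmic ribosomal proteins and 1.36 for oxidative phosphorylation subunits, and 0.719 for hypoblast markers. Other values moved with this comparison. The fibroblast list took 0.210% of bulk reads, with a read for 4 of its 8 genes, against 0 to 0.0776% in gene-rich cells. Rn45s, the ribosomal RNA precursor, took 5.55% of bulk reads against 0.434% to 1.75%. With Rn45s left out of the totals the mean of 34 cells was 1.40-fold above bulk. The part of the fibroblast list was not tested. In bulk RNA, fewer cells of a type and less RNA per cell cannot be told apart.

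By subunit, the gene-rich cells were 1.39-fold above bulk for the large (1.20 to 1.63) and 2.25-fold for the small subunit (1.63 to 3.19). Small-subunit genes supplied 37 of the 206 bulk reads (17.96%, interval 12.97% to 23.9%), against 25.8% ± 5.50 of member reads in gene-rich cells, 20 of which were above the bulk share. When the bulk reads are counted in pairs the interval reaches 26.2%, which takes in the cells' mean.

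Gene by gene, the bulk depth allowed few statements. Of 67 members, 23 (34.3%, against 47.5% of records compared) had 0 bulk reads, 23 had 1 to 3 reads and 21 had more. For a count of 0 a floor of 63.7 CPM (3 reads) was set, while the exact 95% interval reaches 78.3 CPM. On log2(CPM + 1), 28 members were at least 2-fold higher in the mean of 34 cells and 7 at least 2-fold higher in bulk. Among all 9023 records compared, 53.4% and 21.9% were, so neither count stands above this background. At higher levels the first count was somewhat above the background, by a margin that was not tested and is not read as a trait of the members. The first count stayed at 28 members (41.8%), against 34.8% of records limited to a mean of at least 10 CPM and 33.8% with a pseudocount of 10 CPM. The second count was 7 and 6 members, against 30.6% and 19.7%. The first count of 28 included all 23 members with 0 bulk reads, whose ratios depend on the pseudocount. Of those 23 members, 12 had a mean over 34 cells under 63.7 CPM, so a 2-fold difference is not shown for them. Over the gene-rich cells the counts were 30 and 4, against 53.3% and 20% of records. The median log2 ratio of members was 0.67, against 1.61 over all records. That order rests on records at low levels: above a mean of 10 CPM the medians were 0.67 and −0.01, and with a pseudocount of 10 CPM 0.58 and 0.49.

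Among the 44 members with a bulk read, the interval over gene-rich cells lay above bulk for 2, the paralogues Mrps18b and Mrps18a, and below for 3. They were singled out by the same bulk reads that set their intervals, without allowance for screening 44 members. Among that many intervals, some are likely to miss equal levels through counting error alone. The share of all records with such an interval was not computed, so these counts are not read as a trait of the members. Mrps18b had 4 bulk reads (84.9 CPM), and the gene-rich mean was 3.70-fold higher (1.45 to 13.6). Mrps18a had 6 bulk reads (127 CPM), and the gene-rich mean was 2.87-fold higher (1.32 to 7.82). With paired reads the lower bounds were 1.02 and 0.982. Members below bulk were Mrpl42 (mL42), with 12 bulk reads (255 CPM) and 57.9 ± 65.5 CPM in the gene-rich cells, Mrpl47 (uL29, beside the exit tunnel), with 10 bulk reads (212 CPM) and 49.3 ± 53.9 CPM, and Mrps24 (uS3). Bulk was 4.40-fold above the gene-rich mean for Mrpl42 (2.27 to 7.68) and 4.31-fold for Mrpl47 (2.07 to 7.92), and both held with paired reads (lower bounds 1.61 and 1.40). For Mrps24, with 4 bulk reads, the ratio was 5.88 (1.60 to 15.1, and from 0.712 with paired reads). Mrpl30, with 26 bulk reads, was 2.03-fold higher in bulk than in the mean of 34 cells (1.32 to 2.97) and 1.51-fold higher than in the gene-rich cells (0.985 to 2.21). Mrpl34 (2 bulk reads) and Mrps23 (4 bulk reads) had the next lowest ratios of cells to bulk, 0.338 (0.0937 to 2.79) and 0.357 (0.139 to 1.31). Processed pseudogenes may share reads with these genes: the RefSeq table lists 9 pseudogene entries for Mrpl30, 2 each for Mrpl42, Mrpl47 and Mrpl17 and 1 for Mrps18b. How reads that map to several places were counted is not given in the sources used here, so these levels are uncertain to that extent.

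For members without a bulk read only lower bounds can be given, which do not rank them against the others. Against the floor of 3 bulk reads, the Mrpl45 mean was at least 6.27-fold higher over 34 cells. It was at least 2.19-fold higher without C03, and at least 2.37-fold higher in the gene-rich cells. Mrps2 was at least 3.02-fold higher over 34 cells and at least 1.40-fold without C31, but its gene-rich mean was under the floor. For Mrpl1 the bounds were 2.98 over all and 2.52 over gene-rich cells, for Mrps30 they were 2.84 and 1.51, and for Mrps9 they were 1.89 and 1.68. Without the leading cell the bounds over the remaining cells were 1.78 for Mrpl1, 1.08 for Mrps30 and 1.17 for Mrps9. For Mrps30 and Mrps9 the means behind these bounds, 69.0 and 74.4 CPM, lie under the 78.3 CPM that the exact 95% interval for 0 reads allows. In all, 11 of the 23 members without a bulk read were above the floor over 34 cells, 8 without each member's leading cell, and 15 over the gene-rich cells. With reads counted in pairs the floor is 6 reads (127 CPM). Then 4 were above it over 34 cells (Mrpl45, Mrps2, Mrpl1 and Mrps30) and 3 over the gene-rich cells (Mrpl1, Mrpl45 and Mrpl55). Without its leading cell Mrpl45 was still above this floor, at 139 CPM, and Mrps30, Mrps2 and Mrpl1 were below it.

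**Figure D5:**
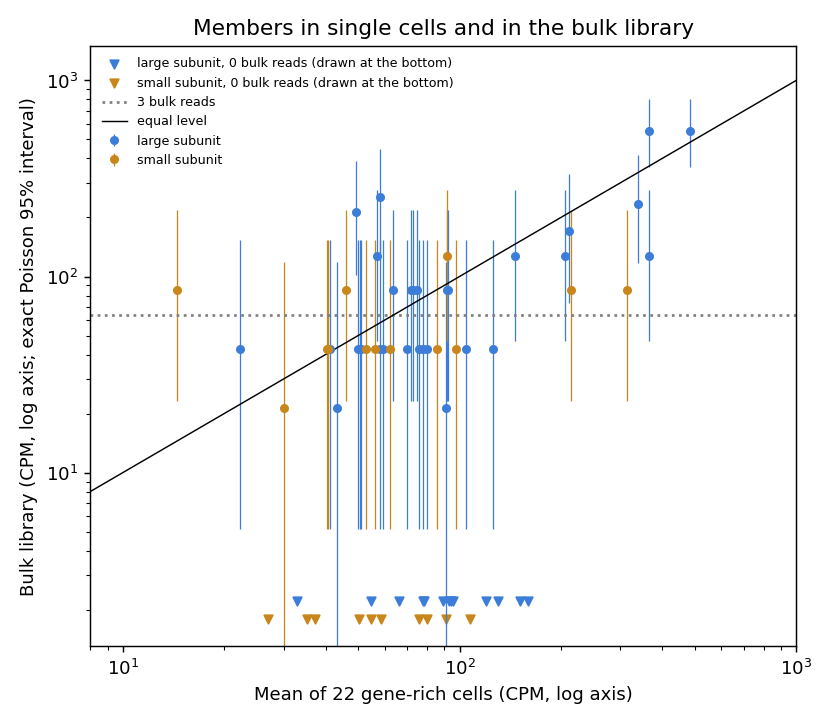
Level of each member in the bulk library (vertical log axis, CPM, exact Poisson 95% interval) against the mean of the 22 gene-rich cells (horizontal log axis, CPM), for large (blue) and small (brown) subunit. Triangles at the bottom are the 23 members with 0 bulk reads, the dotted line is 3 bulk reads (63.7 CPM) and the solid line equal levels; most bulk intervals cross the line.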

How the data were processed

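The authors deposited 1 table of whole-number read counts per RefSeq record, with a column for each of 34 single cells and 1 for bulk. TopHat2 and rn5 are named, per the submitters' processing notes. Which counter and annotation were used, and how reads mapping to several places were treated, is not given in the sources used here. No molecular identifiers are mentioned, so copies of 1 molecule count as several reads.

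Records were matched to symbols by RefSeq identifier through a RefSeq gene table (GRCr8). Unmatched records held 4.14% of reads and stayed in the totals. Counts were scaled to CPM of library totals. Detection, means with equal weight per cell, ratios on log2(CPM + 1) over records averaging 1 CPM or more across both levels, and exact intervals were computed with Python 3.11.15, numpy 2.4.6 and scipy 1.17.1. The code was tested on simulated counts, drawn as independent reads with a much deeper bulk library. That test could not cover the even counts or the low bulk depth of these data. TMM factors (edgeR 4.0.16) and size factors (DESeq2 1.42.0) served as alternatives. No pair of cells, of 561, held identical counts, no cell was removed from the results over 34 cells, and no doublet caller was run.

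Members, lists and tests were chosen with earlier results of these data known. Named members were the 12 detected in most cells, the 5 highest and 5 lowest ratios to bulk, the 8 with the largest share in 1 cell (the last 2 over means of at least 20 CPM), 6 named for their roles, the 3 closest to the sum of the others, and 3 per companion list, of which 1 is not reported here. A planned ranking per coding length was not run, since no lengths were used.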

Additional observations from a re-analysis of the deposited data

How the results depend on the processing

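No paired analysis was possible because the labels give no replicate numbers and each group is 1 sample. Of 63 alternative values for 9 results, 49 stayed within set limits. The limit was a fixed fold of the main value for counts of members and a spread for the other results. At 50 CPM, 16 members reached 17 cells (13.2% of all records) and the median share of cells fell from 58.8% to 38.2%. In the gene-rich cells that share was 86.4%, and after thinning 28 members reached 16 of 32 cells (16.8% of all records). The difference between large and small subunits in median share of cells, 2.94 percentage points, reversed to −3.12 points after thinning, so no order of the subunits is given. With the median over cells, the median log2 ratio of cells to bulk reversed from 0.67 to −0.54 (all records: −3.53) and 28 of 64 members compared were at least 2-fold higher in bulk (68.8% of all records). The ratio was 0.94 with TMM factors and 1.41 with size factors, and the summed ratio to bulk 1.74 with TMM factors. Members at least 2-fold higher in bulk numbered 3 with size factors (14.5% of all records) and 4 over the gene-rich cells (20%). Over the 59 members in at least 17 cells, the median rho of pairs fell from 0.357 to 0.0796 over gene-rich cells and 0.161 after thinning (over all 67 it was 0.06 in gene-rich cells). The causes were not tested. Leaving out the 4 cells with Col1a2, chosen after the results were seen, moved none of the 9 results beyond its limit. Depth limits the bulk comparison, with 206 reads over 67 members.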
